A study of Homo sapiens with 6 samples.

Results

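The comparison set RPE-1 cells that had been released from a thymidine block for 4 h, the last 3 h with an inhibitor of the kinase ATR, against cells still held in the block. RPE-1 is a telomerase-immortalised, non-transformed human line derived from retinal pigment epithelium. The members of the comparison are the 3 libraries 4h_ATRi A, B and C and the 3 libraries of arrested cells A, B and C, paired by letter, which makes 6 of the 17 libraries in the count table. Per the labels, arrested cells received 2 mM thymidine for 24 h, were not released and had no drug. The 4h_ATRi cells had the same block, 3 washes into medium without thymidine, 1 h without drug and then 3 h with the ATR inhibitor AZ20 at 2 µM. A further 2 conditions served to show where the change differed: 4h_DMSO (3 libraries) had the solvent DMSO in place of AZ20 on the same schedule, and 6h_DMSO (3 libraries) had 5 h of DMSO within 6 h of release. The remaining libraries entered the fit only. They were 6h_ATRi (2 libraries), with 5 h of 2 µM AZ20 within 6 h of release, and asynchronous cycling cells (3 libraries). The series' design names 3 separate experiments, and letters A, B and C in the column names were assumed to mark them, since the sample labels do not say so. Inhibited and arrested cells differed in release time, washes, solvent and inhibitor at once, and the parts of these in the change cannot be told apart from this comparison. The population was 1 cell line, and no measure of cell cycle position other than RNA was used here.

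As background, excess thymidine stops DNA synthesis by unbalancing nucleotide pools, and its removal lets cells pass through S phase together. ATR is the kinase that senses single-stranded DNA at stalled or unfinished replication and, through CHK1, restrains origin firing and CDK1, and so entry into mitosis. Genes for mitosis are kept off early in the cycle and are switched on late by the MuvB complex with B-MYB and FOXM1, through a promoter element called the cell cycle genes homology region (CHR) that often stands near CCAAT boxes bound by NF-Y. Genes for DNA replication peak near the G1 to S transition under E2F factors.

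Promoter sequences of these 2 gene classes are given as examples. Those of CENPA, the centromeric histone H3 variant, and of KIF14, a kinesin of cytokinesis, are printed for mitotic genes. Both promoters were picked by the size of the gene's rise, from called mitotic list members without an opposite-strand overlap that held a CHR match. Those of PCNA, the sliding clamp of the replication fork, and of MCM3, a subunit of the replicative helicase, are printed for replication genes. Both promoters were picked by the size of the gene's fall, from called S phase list members without such overlap that held an E2F match. Each runs from 250 bases before to 50 after the RefSeq start (GRCh38.p14, symbols matched), in the direction of transcription: CENPA at chr2:26785806-26786105 on the plus strand, KIF14 at chr1:200620702-200621001 on the minus strand, PCNA at chr20:5126573-5126872 on the minus strand and MCM3 at chr6:52284693-52284992 on the minus strand. Capitals mark CHR (TTTGAA) and CCAAT matches in the first 2, and E2F matches (TTTCCCGC, TTTCGCGC, TTTGCCGC or TTTGGCGC) in the last 2, on either strand. Having a CHR or an E2F match was a condition of the choice. Matches of the other class are left in small letters: CENPA also holds an E2F match, and PCNA and MCM3 also hold CCAAT matches.
CENPA: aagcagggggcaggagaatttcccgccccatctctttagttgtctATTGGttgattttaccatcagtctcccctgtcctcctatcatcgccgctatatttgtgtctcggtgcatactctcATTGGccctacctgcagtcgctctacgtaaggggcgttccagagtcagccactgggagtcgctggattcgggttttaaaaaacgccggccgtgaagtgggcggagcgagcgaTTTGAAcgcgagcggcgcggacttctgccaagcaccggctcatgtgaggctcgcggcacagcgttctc
KIF14: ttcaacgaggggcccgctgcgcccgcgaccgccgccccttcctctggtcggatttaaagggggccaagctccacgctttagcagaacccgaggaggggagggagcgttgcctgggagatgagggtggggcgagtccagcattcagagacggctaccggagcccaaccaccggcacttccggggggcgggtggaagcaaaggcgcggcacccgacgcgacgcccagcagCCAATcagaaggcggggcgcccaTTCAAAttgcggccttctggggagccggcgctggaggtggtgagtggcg
PCNA: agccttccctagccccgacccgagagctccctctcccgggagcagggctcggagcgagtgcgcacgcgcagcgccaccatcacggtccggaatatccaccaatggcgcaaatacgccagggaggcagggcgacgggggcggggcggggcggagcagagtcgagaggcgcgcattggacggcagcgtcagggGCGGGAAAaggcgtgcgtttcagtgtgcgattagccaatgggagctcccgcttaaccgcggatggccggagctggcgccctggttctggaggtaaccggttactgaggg
MCM3: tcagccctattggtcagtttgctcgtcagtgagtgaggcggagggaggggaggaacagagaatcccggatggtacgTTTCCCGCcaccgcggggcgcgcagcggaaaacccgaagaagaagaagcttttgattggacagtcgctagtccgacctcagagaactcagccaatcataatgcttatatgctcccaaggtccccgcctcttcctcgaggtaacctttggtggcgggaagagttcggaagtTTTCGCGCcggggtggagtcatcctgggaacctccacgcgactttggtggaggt
Of 106 mitotic list members with a promoter in the table, 62.3% held a CHR match, against 10.2% of the 8555 promoters matched to tested features and 15.2% of all 35116 promoters. CHR and CCAAT matches stood together in 45.3% of the mitotic members, against 4.23% of tested and 5.9% of all promoters. E2F matches were in 41.4% of 58 S phase list members, against 5.26% of tested and 3.31% of all promoters. CCAAT matches were frequent in both classes, in 66% of the mitotic and 58.6% of the S phase members, against 35.8% of tested and 34.6% of all promoters. A match is a description of the letters and not evidence of binding.

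Read counts ran from 1758747 to 2282302 per library in the 6 libraries, and levels are given in CPM, counts scaled to the library total, of which 1 stands for about 2 counts. Many features of this count table overlap a gene on the opposite strand, and in 1235 of 1568 pairs made of a protein-coding gene and a feature antisense to it (78.8%) the antisense feature held more counts. A value on an overlapped feature can therefore belong to its partner, which is named beside it. Features with no such overlap are called not overlapped. How strand was set in counting is not given in the sources used here. The level of a feature that is not overlapped may therefore also miss reads of its gene, which was not tested. A low CPM on it need not mean little RNA of the gene. A single feature, ENSG00000226958, took 8.25% to 11.5% of the counts in both B libraries and 2.06% to 4.46% in the A and C libraries.

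Of 13510 features tested, 674 (4.99%) were higher and 712 (5.27%) lower, together 10.3%, in 4h_ATRi than in arrested cells at an adjusted p under 0.05 (edgeR's quasi-likelihood test with Benjamini-Hochberg adjustment, letters as a block), which is what "higher", "lower", "rose" and "fell" mean for single features here. Without the block the counts were 265 and 197. The shares of 4.99% higher and 5.27% lower are the background for every list count in 4h_ATRi against arrest below. At a log2 change of at least 1 in size, 307 (2.27%) were higher and 165 (1.22%) lower. The count of features that rose dropped to 441 without arrested C, 374 without experiment A and 413 without experiment C. The count that fell dropped to 473 without 4h_ATRi A, 403 without 4h_ATRi C, 333 without arrested C, 330 without experiment A and 297 without experiment C.

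The 2 strand classes were shifted against each other. The median log2 change was 0.10 over 6208 features that were not overlapped and -0.07 over 7086 overlapped features, with 0.00 over all. Of the features not overlapped, 300 (4.83%) were higher and 95 (1.53%) lower, and of the overlapped features 363 (5.12%) were higher and 594 (8.38%) lower. Scaled on their own, the features not overlapped gave 162 higher and 102 lower. The share of counts on overlapped features was 70.8% to 74.3% in both B libraries and 76.8% to 82.3% in A and C, and the part of strand in the calls was not tested. The spread of the 2 classes is shown in the plot of log2 changes by strand class.

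**Figure D1:**
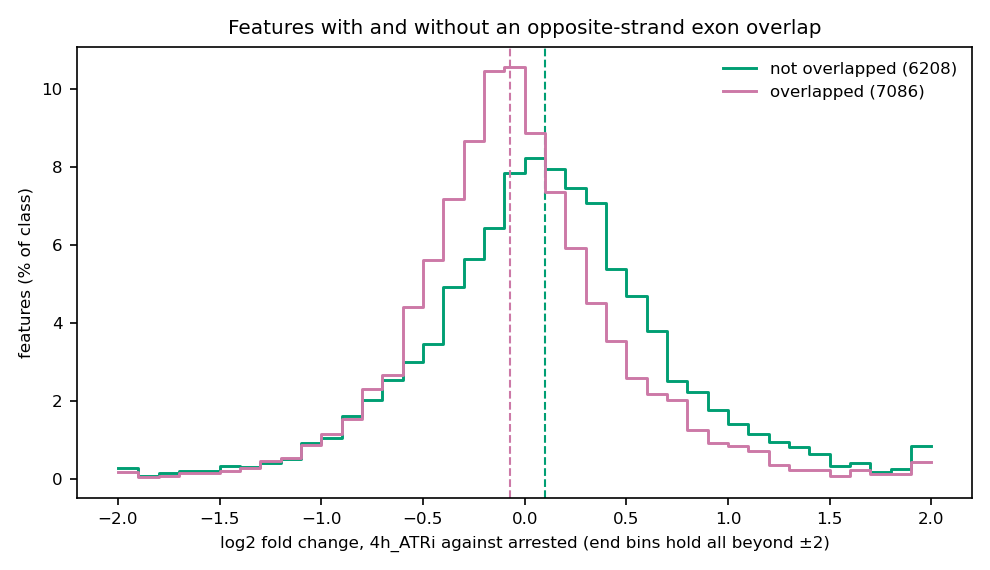
Share of features (%) in each 0.1-wide bin of the log2 fold change, 4h_ATRi against arrested cells, for features with and without an opposite-strand exon overlap; dashed lines are the medians, 0.10 and -0.07. A reader should see that the 2 distributions overlap broadly and that the one of features not overlapped lies further to the right.

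Genes of mitosis rose in inhibited cells, although in bulk libraries more cells of a phase and more RNA per cell cannot be told apart. Of 123 tested members of 9 mitotic lists, 66 were higher, 6 lower and the others not called, with a median log2 change of 0.93 against 0.00 over all features. Among the 70 members not overlapped, 41 were higher and 1 lower (median 1.05), and on their own scaling 32 and 1 (median 0.95). Without experiment A, 43 of the 123 were higher. DESeq2 called 45 higher and gave no adjusted p for 16 of the 66, and without the block 45 were higher and 2 lower. The summed level of the lists was 4095 to 4698 CPM in the 3 arrested libraries and 5881 to 6366 CPM in the 3 inhibited libraries, so the groups did not overlap. It was 4399 to 5120 CPM in 4h_DMSO, where 15 members were higher than in arrest (background 2.25% higher, 4.77% in either direction), and 5241 to 6079 CPM in 6h_DMSO, where 51 were higher (background 3.77%). All 3 changes share the arrested libraries. The 6 members that were lower were CCNA2, PBK, PKMYT1, CENPO, GPSM2 and NCAPD3, all except PBK on overlapped features.

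**Figure D2:**
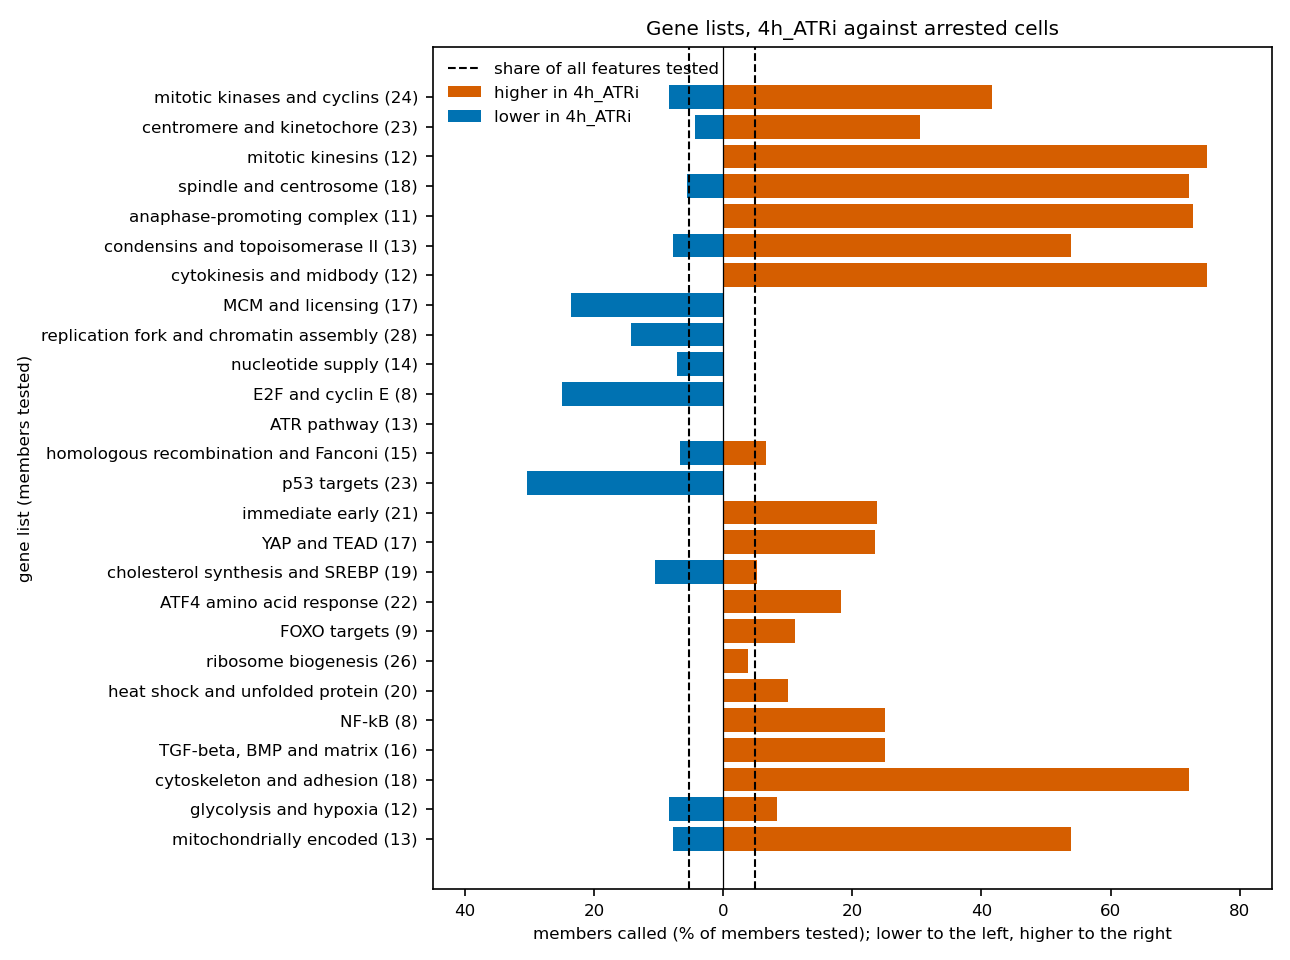
Share of tested members (%) of each gene list with at least 8 tested members that were higher (right) or lower (left) in 4h_ATRi than in arrested cells, with the number tested in brackets; dashed lines are the shares over all 13510 features, 4.99% higher and 5.27% lower. The mitotic lists at the top, the cytoskeletal list and the mitochondrially encoded list extend furthest to the right, and the MCM, E2F and p53 lists furthest to the left.

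Among mitotic kinases and cyclins, 10 of 24 rose and 2 fell (6 and 0 without the block). DESeq2 called 5 higher and 1 lower and gave no adjusted p for the other 6. TPX2, which activates and targets the kinase Aurora A, measured 27.9, 23.9 and 30.99 CPM in arrested cells A, B and C and 75.2, 65.7 and 63.1 CPM in inhibited cells. The groups lay well apart, a log2 change of 1.31 ± 0.18 (SE; adjusted p = 2.49e-09). INCENP, the scaffold of the chromosomal passenger complex, went from 36.8, 39.8 and 29.5 CPM to 66.6, 83.5 and 68.8 CPM (log2 change 1.05 ± 0.17, adjusted p = 4.74e-07). CCNB1, which encodes cyclin B1, the partner of CDK1 at mitotic entry, had 2.97, 2.98 and 1.52 CPM and 8.66, 9.58 and 10.9 CPM. Its groups did not overlap at this low level (log2 change 1.96 ± 0.46, adjusted p = 0.000884), and the call was lost without experiment C (adjusted p = 0.0659). AURKA, the Aurora A kinase, rose from 3.05 to 3.56 CPM to 7.75 to 10.03 CPM (adjusted p = 0.0169). That call was lost without the block (adjusted p = 0.0566), on the scaling of features not overlapped, without 4h_ATRi A or C, arrested C, or experiment A or C (adjusted p up to 0.151). CDK1 itself had 4.75, 12.4 and 9.15 CPM in arrest and 10.9, 14.6 and 11.4 CPM with the inhibitor and was not called (adjusted p = 0.511). The feature PLK1, overlapped by AC008870.3 and ERN2, had 2.37, 4.47 and 7.11 CPM and 30.5, 38.3 and 25.6 CPM (log2 change 2.70 ± 0.31). CCNA2, overlapped by EXOSC9, fell from 113 to 159 CPM to 95.8 to 118 CPM (log2 change -0.44, adjusted p = 0.01), a call lost without the block (adjusted p = 0.198), without 4h_ATRi C, arrested A or C, or experiment A or C (adjusted p up to 0.223).

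The enzymes that set the inhibitory phosphates of CDK1 moved in both directions. Of 5 tested, WEE1 and CDC25B rose and PKMYT1 fell. WEE1, the kinase that restrains CDK1, had 9.49, 5.97 and 9.15 CPM in arrested cells and 24.6, 23.3 and 25.2 CPM in inhibited cells. Every inhibited library lay above every arrested one (log2 change 1.58 ± 0.29, adjusted p = 1.58e-05). CDC25B, a phosphatase that removes those phosphates, had 8.899, 8.95 and 4.57 CPM and 22.3, 48.4 and 16.1 CPM, with the highest value in experiment B (log2 change 1.92 ± 0.29, adjusted p = 5.3e-08). PKMYT1, the membrane-bound relative of WEE1, whose feature is overlapped by PAQR4 and KREMEN2, fell from 294, 115 and 266 CPM to 124, 85.3 and 119.6 CPM. Its groups overlapped through arrested B (log2 change -0.996 ± 0.18, adjusted p = 0.000422), and the call was lost without experiment C (adjusted p = 0.0972). CDC25A (adjusted p = 0.728) and CDC25C, overlapped by FAM53C (adjusted p = 0.469), were not called.

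At the centromere and kinetochore 7 of 23 tested members rose and 1 fell, and by DESeq2 4 rose and 1 fell, with no adjusted p for 1 of the 7. CENPF, a kinetochore and microtubule-binding protein, had 37.97, 56.7 and 47.8 CPM in arrested cells and 143, 128 and 131 CPM in inhibited cells. That is a 2.81-fold change with groups far apart (log2 change 1.49 ± 0.15, adjusted p = 1.41e-16). CENPE, the kinetochore kinesin of chromosome congression, had 7.71, 14.9 and 17.8 CPM and 60.6, 49.3 and 34.7 CPM (log2 change 1.78 ± 0.26, adjusted p = 1.31e-07). CENPA was nearly absent from the counts of arrested cells, with 0.593, 0.497 and 1.02 CPM, and had 13.2, 10.5 and 12.8 CPM with the inhibitor. The 3 arrested libraries held 4 counts in all and the 3 inhibited ones 79, a ratio of CPM of 16.9 with a 95% exact interval of 6.35 to 63.6 that covers counting error only (adjusted p = 8.57e-09).

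Mitotic kinesins rose in 9 of 12 cases, with a median log2 change of 1.09, and none of the 12 fell by edgeR, by DESeq2 or at an unadjusted p under 0.05. KIF14 had 2.37, 8.45 and 2.54 CPM in arrested cells and 26.4, 19.2 and 20.9 CPM in inhibited cells (log2 change 2.26 ± 0.36, adjusted p = 2.6e-07). Its groups did not overlap, and arrested B was the highest of the arrested libraries. KIF11, the motor that separates spindle poles, went from 15.4, 14.4 and 13.2 CPM to 43.8, 33.3 and 29.9 CPM (log2 change 1.30 ± 0.24, adjusted p = 1.23e-05). KIF20B, a plus-end motor of late cytokinesis, rose by 1.14 ± 0.24 and KIF18B, a microtubule depolymerase, by 1.23 ± 0.26 on the log2 scale.

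Spindle and centrosome genes rose in 13 of 18 cases and 1 fell (median log2 change 1.25). By DESeq2 8 rose and 1 fell, and the other 5 had no adjusted p. FAM83D, which recruits casein kinase 1 at the spindle, had 1.19, 1.49 and 2.03 CPM in arrest and 18.7, 20.5 and 19.5 CPM with the inhibitor. The ratio of CPM was 12.1 (95% exact interval 6.17 to 27, counting error only; adjusted p = 4.62e-12). PSRC1, a spindle-associated protein, had 0, 1.49 and 1.02 CPM and 11.4, 12.8 and 11.4 CPM, a ratio of 13.2 (95% exact interval 5.41 to 41.7; adjusted p = 5.1e-08). Both genes were close to the floor of the counts in arrested cells. ASPM, a spindle pole protein, rose by 1.74 ± 0.24, TACC3, which stabilises kinetochore fibres, by 1.27 ± 0.18 and CKAP2 by 1.41 ± 0.25 on the log2 scale, each without overlap of the groups.

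Among genes of the anaphase-promoting complex and its partners, 8 of 11 rose and none fell by edgeR, by DESeq2 or at an unadjusted p under 0.05 (5 higher without the block). UBE2S, the ubiquitin-conjugating enzyme that extends chains for the complex, had 47.5, 56.2 and 39.6 CPM in arrested cells and 149, 159.7 and 129.6 CPM in inhibited cells. This was a 3.06-fold change in libraries that did not overlap (log2 change 1.61 ± 0.14, adjusted p = 3.65e-20). CDC20, the activator of the complex at anaphase, went from 6.53, 9.44 and 10.2 CPM to 32.4, 47.4 and 27.5 CPM (log2 change 2.005 ± 0.26, adjusted p = 2.24e-10). UBE2C, which starts the chains, went from 5.93, 17.9 and 12.2 CPM to 31.5, 45.2 and 25.6 CPM (log2 change 1.47 ± 0.27, adjusted p = 2.06e-05). ARL6IP1, an endoplasmic reticulum shaping protein placed on this list for its cell cycle pattern, had 2.97, 7.95 and 6.605 CPM and 33.7, 23.3 and 13.3 CPM (log2 change 1.92 ± 0.34, adjusted p = 4.44e-06).

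Chromosome structure genes rose in 7 of 13 cases and 1 fell. Cytokinesis and midbody genes rose in 9 of 12 cases (6 without the block), and none of the 12 fell by edgeR, by DESeq2 or at an unadjusted p under 0.05. MKI67, the proliferation antigen that coats mitotic chromosomes, had 189, 215 and 206 CPM in arrest and 449, 529 and 463 CPM with the inhibitor, a 2.35-fold change (log2 change 1.24 ± 0.10, adjusted p = 1.26e-21). KPNA2, a nuclear import adaptor, went from 20.2, 13.4 and 9.65 CPM to 60.6, 53.8 and 61.7 CPM (log2 change 2.05 ± 0.21, adjusted p = 2.61e-15). TOP2A, the topoisomerase that untangles sister chromatids, rose by 0.89 ± 0.15 and HMGB2, a chromatin protein, by 1.05 ± 0.16 on the log2 scale. In none of these 4 genes did an inhibited library fall within the range of the arrested ones. CDCA2 of the cytokinesis list, which targets protein phosphatase 1 to chromatin, went from 1.99 to 2.97 CPM to 8.07 to 9.58 CPM (log2 change 1.85 ± 0.47), a call lost without arrested C (adjusted p = 0.0542).

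**Figure D3:**
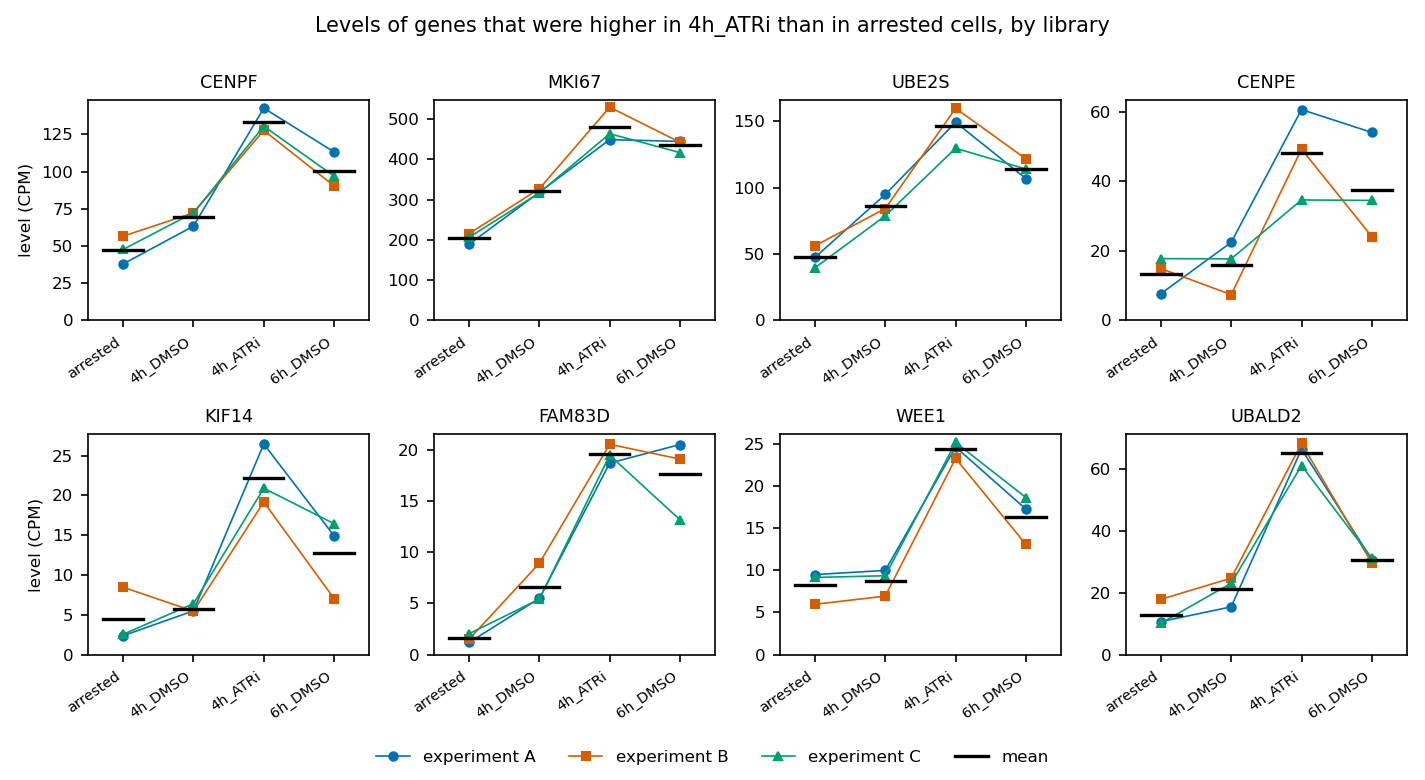
Level (CPM) of 8 genes in each library of arrested, 4h_DMSO, 4h_ATRi and 6h_DMSO cells; lines join libraries of 1 experiment and black bars are means over the 3 experiments. In all 8 the inhibited libraries lie above the arrested libraries, as for MKI67 with 449 to 529 CPM against 189 to 215 CPM.

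Features on the strand opposite to mitotic genes rose as well, at higher counts. Of 60 such features, 29 were higher, 2 lower and 29 not called (median log2 change 0.38). Over all overlapped features, 5.12% were higher and 8.38% lower. AC106820.5, opposite CCNF, the F-box protein cyclin F, had 83.1, 76.6 and 89.4 CPM in arrested cells and 485, 453 and 381 CPM in inhibited cells, a 5.27-fold change (log2 change 2.397 ± 0.11, adjusted p = 1.63e-43). AC008870.3, opposite the kinase gene PLK1, had 127, 95.9 and 115 CPM and 632, 610.3 and 471 CPM (log2 change 2.34 ± 0.11, adjusted p = 1.68e-33). For both, every inhibited library lay far above every arrested one. DIS3, overlapped by BORA, the activator of Aurora A and PLK1, had 84.8, 73.1 and 85.4 CPM and 438, 429 and 306 CPM (log2 change 2.26 ± 0.12). CLCC1, overlapped by GPSM2, a spindle orientation gene, had 116, 118 and 126 CPM and 449.6, 484 and 328 CPM (log2 change 1.79 ± 0.11), while the feature GPSM2 was among the 6 that were lower. Further rises were measured on GNB3, opposite CDCA3 (log2 change 1.96 ± 0.15), MYH11, opposite NDE1 (1.49 ± 0.12), and ERN2, opposite PLK1 (2.33 ± 0.20). Whether the counts of these features come from the gene named or from the mitotic gene was not tested. In 78.8% of all coding and antisense pairs the antisense feature held more counts, so a change on an overlapped feature may not be one of the gene named.

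Genes of DNA replication were lower or not called. Of 67 tested members of 4 S phase lists, 11 fell and none rose (none also at an unadjusted p under 0.05 and by DESeq2), with a median log2 change of -0.42. Among the 44 members not overlapped, 7 fell (median -0.48). The summed level of the lists was 1351 to 1573 CPM in arrested and 1116 to 1263 CPM in inhibited libraries. Against arrest, 1 member was lower in 4h_DMSO (background 2.52%) and 9 in 6h_DMSO (background 3.94%). The count of 11 was unsteady. It became 4 without the block, 5 by DESeq2, 7 with no filter on low counts, 5 without 4h_ATRi A, 4 without 4h_ATRi B, 6 without arrested B, 4 without arrested C, 5 without experiment A or without experiment B and 4 without experiment C.

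Licensing genes fell in 4 of 17 cases, MCM2 (overlapped by TPRA1), MCM3, MCM4 and CDT1 (1 without the block). MCM3 had 23.7, 21.9 and 27.9 CPM in arrested cells and 10.9, 5.02 and 15.7 CPM in inhibited cells. The groups did not overlap (log2 change -1.24 ± 0.28, adjusted p = 0.000747), and the call was lost without 4h_ATRi B (adjusted p = 0.0524). CDT1, which loads the helicase, had 12.5, 36.3 and 34.5 CPM and 10.5, 21.9 and 11.4 CPM, so the groups overlapped. It fell within each letter (adjusted p = 0.00845), a call lost without the block (adjusted p = 0.248), without 4h_ATRi C, arrested C or experiment C (adjusted p up to 0.409). The MCM2 call (adjusted p = 0.0123) was lost without the block (adjusted p = 0.114), without 4h_ATRi B, arrested C, or experiment B or C (adjusted p up to 0.159). The MCM4 call (adjusted p = 0.0378) was lost without the block (adjusted p = 0.177), by DESeq2, with no filter, with only compared conditions, without 4h_ATRi A or B, arrested B or C, or any 1 experiment (adjusted p up to 0.49). At the fork, 4 of 28 fell, PCNA, CHAF1A (overlapped by AC011498.3 and UBXN6), HELLS and SLBP (2 without the block and 1 by DESeq2, which gave no adjusted p for the other 3). CHAF1A lost its call without 4h_ATRi A, arrested C, or experiment A or C (adjusted p up to 0.123), and HELLS without the block (adjusted p = 0.135), with no filter, without 4h_ATRi A or B, arrested B, or experiment A or B (adjusted p up to 0.464). SLBP lost its call without the block (adjusted p = 0.178), with no filter, with only compared conditions and without any 1 library or experiment (adjusted p up to 0.241). PCNA had 13.1, 18.9 and 9.65 CPM and 4.56, 4.56 and 5.696 CPM (log2 change -1.45 ± 0.39, adjusted p = 0.00515). Its call was lost without 4h_ATRi B, arrested B, or experiment A or B (adjusted p up to 0.182). TYMS, the thymidylate synthase gene, overlapped by ENOSF1 and TYMSOS, was the 1 of 14 nucleotide supply genes that fell (adjusted p = 0.0443). Its call was lost without the block (adjusted p = 0.196), by DESeq2, with upper-quartile factors, with no filter, with only compared conditions, without ENSG00000226958 and mitochondrial genes, and without any 1 library or experiment except 4h_ATRi C (adjusted p up to 0.338). RRM2, a subunit of ribonucleotide reductase, with 45.1, 38.8 and 35.6 CPM and 28.7, 27.8 and 28.5 CPM, was not called (adjusted p = 0.141).

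The 2 called among 8 genes of E2F and cyclin E were CCNE2 and SKP2 (1 without the block). CCNE2, cyclin E2, overlapped by INTS8 and ENSG00000272509, fell from 74.2, 42.3 and 76.7 CPM to 26.9, 33.8 and 34.7 CPM (log2 change -1.004 ± 0.18, adjusted p = 8.53e-06). SKP2, the F-box protein that marks p27 for degradation, fell from 12.5, 9.94 and 10.2 CPM to 2.74, 7.299 and 1.42 CPM (log2 change -1.53 ± 0.43, adjusted p = 0.0078). The SKP2 call was lost without the block (adjusted p = 0.0958) and without any 1 of 4h_ATRi A or C, arrested A or C, and experiment A or C (adjusted p up to 0.202). CDKN1B, which encodes p27 and is on the FOXO list, rose from 10.1, 8.95 and 8.64 CPM to 20.1, 17.3 and 26.1 CPM (log2 change 1.19 ± 0.30, adjusted p = 0.00276), a call lost without arrested C or experiment C (adjusted p up to 0.131). DTL, the adaptor that targets CDT1 to its ubiquitin ligase, fell from 7.71, 7.46 and 13.7 CPM to 2.28, 3.19 and 2.85 CPM (adjusted p = 0.00726). Its call was lost without the block (adjusted p = 0.0893), without 4h_ATRi C, arrested C or experiment C (adjusted p up to 0.235).

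Over all overlapped features, 8.38% were lower and 5.12% higher. On the strand opposite to S phase genes, 18 of 29 features fell and none rose by edgeR or by DESeq2, with 1 higher at an unadjusted p under 0.05 (median log2 change -0.55). Those given here were chosen after their values were seen. AL354864.1, opposite CLSPN, the adaptor Claspin through which ATR activates CHK1, had 216, 153 and 215 CPM in arrested cells and 82.1, 82.6 and 80.7 CPM in inhibited cells. The inhibited libraries were close together and below every arrested library (log2 change -1.25 ± 0.13, adjusted p = 6.62e-15). INTS8, opposite CCNE2, had 432, 199.8 and 465 CPM and 75.7, 48.4 and 75.9 CPM (log2 change -2.41 ± 0.22, adjusted p = 1.67e-06). HSD17B6, opposite the primase gene PRIM1, changed by -1.56 ± 0.20, AC011498.3, opposite CHAF1A, a histone chaperone subunit, by -1.15 ± 0.15, AC009118.2, opposite GINS3, by -0.91 ± 0.18 and VIL1, opposite USP37, by -0.82 ± 0.12 on the log2 scale.

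Of the ATR pathway, 13 members were tested and none was called by edgeR or by DESeq2, with a median log2 change of -0.18 and 2 members lower and none higher at an unadjusted p under 0.05. CHEK1, the effector kinase CHK1, had 2.97, 4.47 and 4.06 CPM in arrest and 1.82, 3.65 and 5.696 CPM with the inhibitor (adjusted p = 0.964). CLSPN, overlapped by AL354864.1, had 13.1, 21.4 and 25.9 CPM and 8.66, 12.8 and 14.2 CPM and was not called (adjusted p = 0.0761). Among 15 genes of homologous recombination and the Fanconi pathway, RBBP8 fell and XRCC3, overlapped by KLC1, rose by 0.42 ± 0.10 on the log2 scale, a call lost without the block (adjusted p = 0.178) and without experiment A or B (adjusted p up to 0.136). RBBP8 encodes CtIP, which starts DNA end resection, and had 9.49, 14.4 and 21.8 CPM and 4.56, 4.56 and 3.797 CPM. It changed by -1.81 ± 0.39 on the log2 scale (adjusted p = 0.000259), with the call lost without arrested C or experiment C (adjusted p up to 0.0848).

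**Figure D4:**
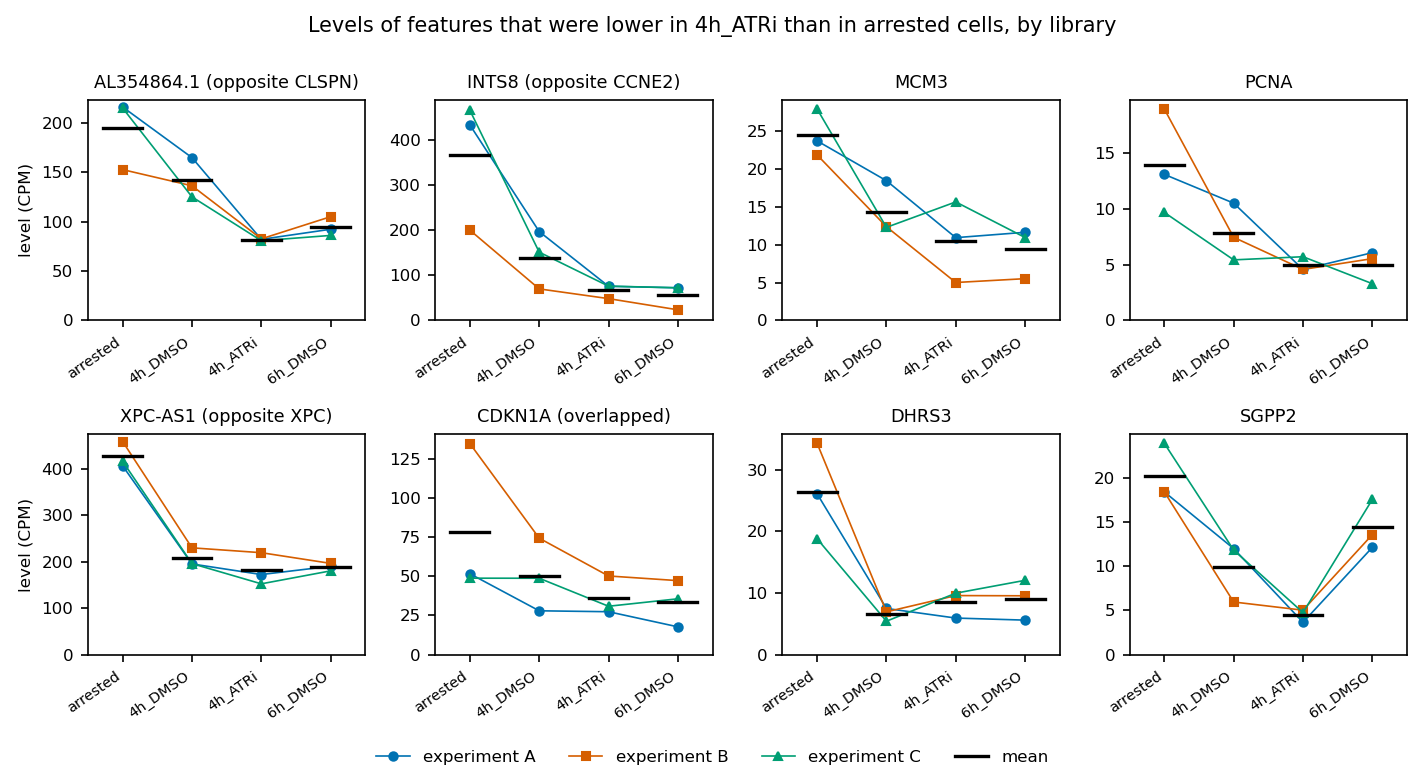
Level (CPM) of 8 features in each library of arrested, 4h_DMSO, 4h_ATRi and 6h_DMSO cells; lines join libraries of 1 experiment and black bars are means over the 3 experiments. The inhibited libraries lie below every arrested library in 7 of the 8 features, and for CDKN1A, where experiment B is high throughout, inhibited B (50.2 CPM) lies within the arrested range.

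Targets of p53 were lower or not called. Of 23 tested, 7 fell and none rose (none also at an unadjusted p under 0.05 and by DESeq2), with a median log2 change of -0.59 and a summed level of 572 to 880.3 CPM in arrest and 447 to 502 CPM with the inhibitor. CDKN1A, the CDK inhibitor p21, overlapped by ENSG00000285244, had 51.6, 135 and 48.8 CPM in arrested cells and 27.4, 50.2 and 30.9 CPM in inhibited cells. It was lower in each letter, and the groups overlapped with experiment B high in both (log2 change -1.06 ± 0.19, adjusted p = 2.11e-05; without the block 0.311). AEN, an apoptosis-enhancing nuclease, fell from 13.6, 20.9 and 13.7 CPM to 4.104, 5.47 and 12.3 CPM (adjusted p = 0.0109), a call lost without the block (adjusted p = 0.0883), without 4h_ATRi A or B, arrested B, or experiment A or B (adjusted p up to 0.314). PLK2, a stress-induced polo-like kinase, fell from 84.2, 79.5 and 86.9 CPM to 61.6, 54.7 and 54.1 CPM (adjusted p = 0.00866), lost without the block (adjusted p = 0.135), without 4h_ATRi C, or experiment A or C (adjusted p up to 0.109). MDM2, the p53 ubiquitin ligase, overlapped by AC025423.4 and the carboxypeptidase gene CPM, was not called (adjusted p = 0.177). The count of 7 was 1 without the block, 3 by DESeq2, 3 without 4h_ATRi A, without 4h_ATRi B or without 4h_ATRi C, 4 without arrested B, 3 without experiment A, 2 without experiment B and 4 without experiment C.

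The 3 features given here lie opposite p53 targets and were chosen after their values were seen. XPC-AS1, opposite the nucleotide excision repair gene XPC, had 406, 459 and 416 CPM in arrest and 172, 219 and 152 CPM with the inhibitor. Every inhibited library lay below every arrested one (log2 change -1.24 ± 0.11, adjusted p = 5.69e-20). AL390208.1, opposite the sestrin gene SESN1, changed by -1.72 ± 0.21 (adjusted p = 1.19e-07) and AC025423.4, opposite MDM2, by -0.79 ± 0.11 (adjusted p = 4.21e-07) on the log2 scale. Against arrest, 3 of the 23 list members were lower in 4h_DMSO (background 2.52%) and 8 in 6h_DMSO (background 3.94%).

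Genes of the cytoskeleton and adhesion rose in 13 of 18 cases (7 without the block or without experiment C) and none fell by edgeR, by DESeq2 or at an unadjusted p under 0.05. Among the 7 members not overlapped, 6 rose, and 4 on their own scaling. AKAP12, a scaffold of protein kinase A at the cell cortex, had 46.9, 51.7 and 41.7 CPM in arrested cells and 121, 118 and 122 CPM in inhibited cells (log2 change 1.36 ± 0.15, adjusted p = 6.26e-14). The 3 inhibited libraries were nearly level and far above arrest. TRIO, a guanine nucleotide exchange factor, went from 38.6, 40.3 and 33.5 CPM to 65.7, 85.3 and 94.5 CPM (log2 change 1.12 ± 0.16, adjusted p = 1.31e-08). ACTG1, the cytoplasmic gamma actin gene, went from 387, 469 and 391 CPM to 563, 567 and 667 CPM (log2 change 0.53 ± 0.10, adjusted p = 6.07e-05; without the block 0.0728). Against arrest, 12 of the 18 rose in 4h_DMSO (background 2.25%) and 15 in 6h_DMSO (background 3.77%). Between 4h_ATRi and 4h_DMSO none of the 18 was called by edgeR or by DESeq2, and at an unadjusted p under 0.05 there were 2 higher and 1 lower.

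Early-response and matrix genes rose in part. Of 21 immediate early genes 5 rose (2 without the block, 3 by DESeq2), of 17 YAP and TEAD targets 4, and of 16 TGF-beta, BMP and matrix genes 4, and none of these 54 fell by edgeR or by DESeq2, with 1 lower at an unadjusted p under 0.05. KLF2, a shear- and serum-responsive factor, had 11.9, 11.4 and 9.15 CPM in arrest and 34.7, 25.5 and 30.9 CPM with the inhibitor (log2 change 1.48 ± 0.26, adjusted p = 4.37e-06). KLF6, a related factor, had 6.53, 5.47 and 2.03 CPM and 17.3, 12.8 and 24.2 CPM (log2 change 1.92 ± 0.37, adjusted p = 3.4e-05). Both were well apart between groups. ANKRD1, a YAP target in muscle and epithelial cells, went from 121, 111 and 98.6 CPM to 253, 150.1 and 275 CPM, with the smallest rise in experiment B (log2 change 1.01 ± 0.15, adjusted p = 5.3e-06). AL133346.1, overlapped by the connective tissue growth factor gene CCN2, had 644, 609 and 496 CPM and 1735, 1285 and 1811 CPM (log2 change 1.44 ± 0.10, adjusted p = 3.52e-24). The feature CCN2 changed by 1.63 ± 0.17. GREM1, a BMP antagonist overlapped by GREM1-AS1, rose from 40.3, 33.3 and 30.99 CPM to 116, 74.8 and 123 CPM (log2 change 1.57 ± 0.16, adjusted p = 2.78e-15). EGR1, a classical immediate early gene, was not called (adjusted p = 0.659).

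Transcripts of the mitochondrial genome changed in 8 of 13 cases, 7 higher and 1 lower, and their strand is uncertain for the reason given above. These counts were 11 and 1 by DESeq2, and 12 and 1 at an unadjusted p under 0.05. They were 5 and 1 without the block, and 6 and 1 on the scaling of features not overlapped. The median log2 change of the list was 1.07, against 1.14 in 4h_DMSO and 0.37 in 6h_DMSO. In 6h_DMSO 5 were higher and 1 lower than in arrest (background 3.77% and 3.94%). MT-ND3, a subunit of respiratory complex I, had 519, 265 and 513 CPM in arrest and 1051, 764 and 1347 CPM with the inhibitor. Arrested B was the lowest library, and every inhibited library lay above every arrested one (log2 change 1.31 ± 0.09, adjusted p = 1.42e-26). MT-ND5 rose by 1.07 ± 0.08, MT-CO3 by 1.06 ± 0.08 and MT-ND2 by 1.03 ± 0.09 on the log2 scale. The adjusted p without the block was 0.038 for MT-ND3, 0.0432 for MT-ND5, 0.0258 for MT-CO3 and 0.0022 for MT-ND2. MT-ND6, which is encoded on the other strand of the mitochondrial genome from these 4, fell from 19196, 15007 and 18791 CPM to 10622, 10438 and 10697 CPM (log2 change -0.73 ± 0.07, adjusted p = 8.87e-16). In 4h_DMSO against arrest the values were 1.34 ± 0.09 for MT-ND3 and -0.71 ± 0.07 for MT-ND6, and in 6h_DMSO 1.18 ± 0.09 and -0.72 ± 0.07. For the same genes the differences between 4h_ATRi and 4h_DMSO were -0.03 ± 0.09 and -0.02 ± 0.07 (adjusted p = 0.958 and 0.967).

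Metabolic and stress lists held at most 4 calls each in a direction, beside 4.99% of all features higher and 5.27% lower. By share, rises in the ATF4, NF-kB and heat shock lists stood above that background. So did the single rises in the FOXO, FOXM1 and glycolysis lists. The single rise among ribosome biogenesis genes stood below it, and that among cholesterol and SREBP genes near it. INSIG1, which retains SREBP in the endoplasmic reticulum and is itself an SREBP target, was the 1 of 19 cholesterol and SREBP genes that rose, while FADS1 and FADS2, fatty acid desaturases that overlap each other, fell (1 of the pair without the block). INSIG1 had 4.75, 4.47 and 1.02 CPM in arrested cells and 15.5, 16.4 and 9.97 CPM in inhibited cells, without overlap (log2 change 2.04 ± 0.42, adjusted p = 0.000126). The cholesterol synthesis gene HMGCS1, overlapped by ENSG00000261604, was not called (adjusted p = 0.232). Of 22 ATF4 response genes 4 rose (1 without the block, 2 by DESeq2), led by SLC7A5, a leucine transporter overlapped by AC126696.2, with 83.1, 81.03 and 59.4 CPM and 174, 128 and 226 CPM (log2 change 1.21 ± 0.17, adjusted p = 9.1e-07). Of 26 ribosome biogenesis genes 1 rose, of 20 heat shock and unfolded protein genes 2 (none without the block), of 9 FOXO targets 1 (CDKN1B), of 5 FOXM1 and MuvB genes 1 (none without the block), and of 12 glycolysis and hypoxia genes 1 rose and 1 fell (none without the block). Of 5 interferon genes IFIT3 fell. On the list of replication histones only H2AX, a histone variant, was tested, and it rose. The other members of that list were not tested. Of 8 NF-kB targets IL1A and IL1B rose (none without the block). The IL1A call (adjusted p = 0.00417) was lost without the block (adjusted p = 0.886), without arrested C or experiment C (adjusted p up to 0.0824). IL1B, the cytokine interleukin 1 beta, had 11.9, 82.5 and 11.2 CPM and 22.8, 118 and 30.4 CPM. It was higher in each letter, with experiment B far above the other 2 in both groups (adjusted p = 0.00164; without the block 0.886; up to 0.0718 without 4h_ATRi C or experiment C).

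Several of the largest changes stood on no mitotic or S phase list. UBALD2, a little-studied gene with a UBA-like domain, had 10.7, 17.9 and 10.2 CPM in arrested cells and 66.6, 68.4 and 61.2 CPM in inhibited cells, a 5.05-fold change (log2 change 2.34 ± 0.22, adjusted p = 1.83e-17). GAS2L3, which links actin and microtubules at the midbody, went from 4.15, 0.994 and 1.52 CPM to 5.93, 10.9 and 11.4 CPM (log2 change 2.13 ± 0.49), a call lost without experiment B or C (adjusted p up to 0.0617). Among falls, SGPP2, a sphingosine 1-phosphate phosphatase, went from 18.4, 18.4 and 23.9 CPM to 3.65, 5.02 and 4.75 CPM (log2 change -2.16 ± 0.34, adjusted p = 2.61e-07). DHRS3, a retinaldehyde reductase, went from 26.1, 34.3 and 18.8 CPM to 5.93, 9.58 and 9.97 CPM (log2 change -1.62 ± 0.30, adjusted p = 8.49e-06). ANXA9, an annexin, went from 46.9, 40.8 and 48.8 CPM to 12.3, 20.1 and 18.04 CPM (log2 change -1.43 ± 0.23, adjusted p = 2.91e-07). In these 3 genes every inhibited library lay below every arrested one. CCR7, a chemokine receptor, changed by -1.69 ± 0.36 and IFIT3, an interferon-induced gene, by -1.94 ± 0.42 on the log2 scale. OGN and ECM2, matrix protein genes, were high in experiment B. OGN fell from 2.97, 28.8 and 3.56 CPM to 0.456, 8.67 and 1.42 CPM and ECM2 from 7.71, 31.3 and 3.05 CPM to 0.912, 9.58 and 2.37 CPM (adjusted p without the block 0.665 for OGN and 0.592 for ECM2). The OGN call was lost without 4h_ATRi B, arrested B or experiment B (adjusted p up to 0.375) and the ECM2 call without arrested B, or experiment A or B (adjusted p up to 0.209).

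The difference from solvent at the same time was tested with 4h_DMSO in place of arrest, in which the arrested libraries cancel. There, 162 features (1.2%) were higher and 75 (0.555%) lower with the inhibitor, together 1.75%, and without the block 39 and 3. Leaving out 1 library at a time gave 100 to 137 higher and 22 to 43 lower, and leaving out 1 experiment 72 to 136 and 6 to 36. The lower count was thus below 75 by more than 1.5 times in all 9 of these fits, at 22, 33 and 28 without 4h_ATRi A, B and C, 23, 31 and 43 without 4h_DMSO A, B and C, and 6, 33 and 36 without experiments A, B and C. Counts of 105 or fewer higher features came without 4h_ATRi A (105), 4h_ATRi B (102), 4h_DMSO B (100), 4h_DMSO C (105), experiment A (72) and experiment B (85). Of the 123 mitotic members 36 were higher and none lower by edgeR or by DESeq2, with 3 lower at an unadjusted p under 0.05 (median log2 difference 0.62). KIF14 had 5.49, 5.45 and 6.399 CPM in 4h_DMSO, within its arrested range, and the inhibited libraries given above all exceeded these (log2 difference 1.93 ± 0.34, adjusted p = 2.11e-05). WEE1 had 9.98, 6.94 and 9.35 CPM in 4h_DMSO (log2 difference 1.47 ± 0.29, adjusted p = 0.000206). CENPE (1.61 ± 0.25), CENPF (0.95 ± 0.14), UBE2S (0.76 ± 0.13) and ARL6IP1 (2.13 ± 0.34) were higher as well. These 6 differences held without the block and with each library or experiment left out. For MKI67 the difference was 0.58 ± 0.10 (adjusted p = 7.9e-06; without the block 0.138).

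Levels in 4h_DMSO lay between for some of these genes. MKI67 had 318, 327 and 317 CPM there and changed by 0.66 ± 0.10 from arrest, against 1.24 ± 0.10 with the inhibitor and 1.09 ± 0.10 in 6h_DMSO. Of the 67 S phase members, none differed between 4h_ATRi and 4h_DMSO by edgeR or by DESeq2, with 8 lower and 1 higher at an unadjusted p under 0.05 (median log2 difference -0.30). AL354864.1, opposite CLSPN, had 165, 136 and 125 CPM in 4h_DMSO and was lower with the inhibitor (log2 difference -0.79 ± 0.13, adjusted p = 4.91e-06), a call that held without the block and with each library or experiment left out. INSIG1 had 2.496, 0.991 and 1.97 CPM in 4h_DMSO, below each inhibited library, and UBALD2 15.5, 24.8 and 23.1 CPM. Their differences were 2.90 ± 0.46 (adjusted p = 1.85e-06) and 1.63 ± 0.20 (adjusted p = 1.54e-10).

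**Figure D5:**
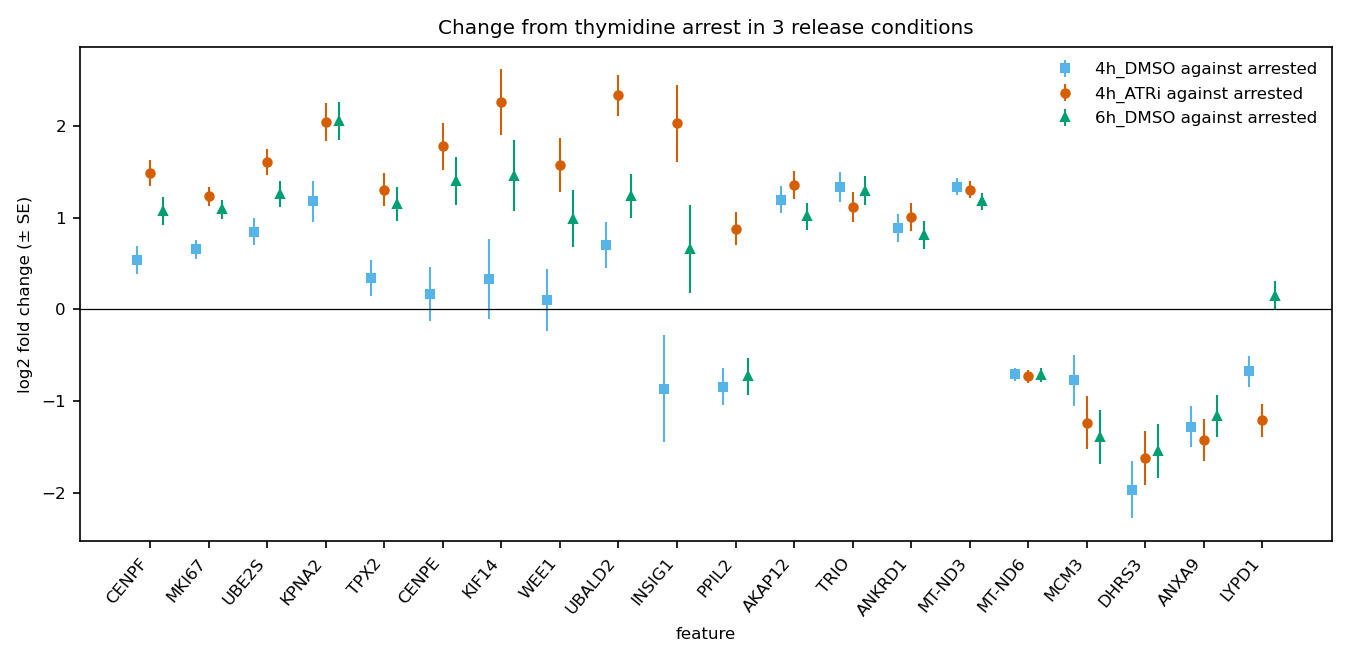
Log2 fold change (± SE) of 20 features against arrested cells in 4h_DMSO, 4h_ATRi and 6h_DMSO, which all share the 3 arrested libraries. For mitotic genes such as CENPF the 4h_ATRi value (1.49) lies above that of 4h_DMSO (0.54), while for AKAP12, TRIO, MT-ND3 and DHRS3 the 3 values lie close together.

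Against solvent cells with 2 h more of release, 109 features (0.807%) were higher and 104 (0.77%) lower in 4h_ATRi, and 8 and 5 without the block. The counts were 254 and 259 when only the compared conditions were fitted, 69 and 97 by DESeq2, 20 and 6 without experiment A, 59 and 54 without experiment C, 42 and 28 without 4h_ATRi A, 56 and 38 without 6h_DMSO A and 65 and 61 without 6h_DMSO C. The lower features also dropped to 43 without 4h_ATRi C and to 48 without 6h_DMSO B. Over the 123 mitotic members the median log2 difference was 0.15, with 1 higher and 1 lower, and the lower one was CDCA3, overlapped by GNB3. For CENPF, with 113, 90.4 and 96.99 CPM in 6h_DMSO, the difference was 0.41 ± 0.13 (adjusted p = 0.0993), and for TPX2, with 71.3, 46.7 and 66.9 CPM, it was 0.15 ± 0.16 (adjusted p = 0.825). A p above the threshold does not show that these levels were equal. Of the S phase members none was called by edgeR or by DESeq2, and an unadjusted p under 0.05 was reached by 3 that were higher and 2 that were lower.

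The differences from 6h_DMSO that held without the block and with each library or experiment left out included the following. UBALD2 had 30.8, 29.6 and 31.2 CPM in 6h_DMSO (log2 difference 1.10 ± 0.19, adjusted p = 4.27e-05). AL133346.1, opposite CCN2, had 812, 778 and 966 CPM (0.91 ± 0.09, adjusted p = 3.57e-12). HOOK2, overlapped by the immediate early gene JUNB, had 98.5, 93.5 and 76.2 CPM in arrest, 181, 130.5 and 206 CPM with the inhibitor and 66.6, 60.3 and 84.4 CPM in 6h_DMSO (1.29 ± 0.14, adjusted p = 4.67e-13). CEP44, overlapped by FBXO8, had 11.3, 14.9 and 12.2 CPM in arrest and 69.3, 56.6 and 54.1 CPM with the inhibitor, above every 4h_DMSO (14.4 to 25.96 CPM) and 6h_DMSO (16.6 to 22.4 CPM) library (1.63 ± 0.22, adjusted p = 6.02e-09). In the other direction, LYPD1, overlapped by GPR39, had 65.3, 54.2 and 68.6 CPM in arrest, 24.6, 24.6 and 31.8 CPM with the inhibitor and 65.7, 69.8 and 72.9 CPM in 6h_DMSO (-1.36 ± 0.18, adjusted p = 2.63e-09). TCP11L1, overlapped by CSTF3, had 212, 159 and 197 CPM, 90.7, 96.7 and 84.97 CPM and 179.9, 179 and 164 CPM in the same order (-0.94 ± 0.12, adjusted p = 6.02e-09). For both, every inhibited library lay below every library of arrested and of 6h_DMSO cells.

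Markers were checked against the labelled tissue. Of the retinal pigment epithelium list of 14 genes, several were at or near 0: RPE65 had 0 to 2 counts, RLBP1 0 to 3, TTR 0 to 1 and LRAT 0 to 4 over the 17 libraries, and TYR, OTX2 and RDH5 had 0 to 5, 0 to 10 and 0 to 5. Others were present in all 17 libraries: MITF had 3 to 18 counts, TYRP1 2 to 23, SERPINF1 22 to 57 and PMEL, overlapped by CDK2, 516 to 796. BEST1, overlapped by FTH1, had 19828 to 33505 counts, and the keratins KRT8 and KRT18, which overlap each other, 4908 to 10329 and 404 to 735. Of 7 tested, 1 was called (SERPINF1, lower), and none without the block or by DESeq2. Of 17 markers of other cell types in the table, 9 were at 0 in all 17 libraries, 13 never exceeded 3 counts and 3 could be tested, of which none was called by edgeR, by DESeq2 or at an unadjusted p under 0.05. Their summed level was 12.2 to 23.4 CPM in arrest and 9.97 to 27.8 CPM with the inhibitor. In the authors' deposited table of this comparison, 532 of the 5957 features with an adjusted p were under 0.05, of which 286 were higher in 4h_ATRi and 246 lower.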

How the data were processed

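The authors deposited raw read counts per gene ID for 17 libraries of polyadenylated RNA, per the labels' protocols prepared with a stranded kit. The submitters' processing notes name TopHat, HTSeq, DESeq2 and build GRCh37, and how strand was set in counting is not given in the sources used here. The deposited table of comparisons gave log2 fold changes and adjusted p-values by the authors, whose sign was reversed here after checking it against the counts. Names and opposite-strand overlaps came from GENCODE release 29.

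Counts were fitted with edgeR 4.0.16 (R 4.3.3; TMM factors, robust quasi-likelihood fit, filterByExpr with minima of 10 counts per library and 15 in total) over all 17 libraries, with a mean per condition and the letter as a block, leaving 9 residual degrees of freedom, and Benjamini-Hochberg adjustment over 13510 features. Same-letter libraries deviated together in 4h_ATRi and arrested cells (r = 0.19, 0.466 and 0.144 across features for A, B and C). The highest correlation with another letter was 0.241, -0.262 and 0.143, so only B stood out clearly. The letters were treated as pairs because the comparison is defined by letter, and were assumed to mark the independent experiments that the series mentions. The correlations were not a reason for the block. CPM values used TMM-scaled totals. Each SE was worked back from the test, as the size of the log2 change divided by the square root of its F statistic. Library totals ran from 1758747 to 2357561, which limits low genes. Intervals and p-values rest on 3 experiments.

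Named features followed a rule: the 15 largest rises and falls not overlapped with a mean of at least 5 CPM, up to 5 called members of each of 32 lists, 44 panel genes (18 of 43 tested higher, 5 lower and 20 not called), up to 10 features opposite list members, and up to 10 with the smallest p in each DMSO comparison. The members and lists were chosen with earlier results of these data known. On simulated data, of 50 features changed by a log2 of 1, -1, 2 and -2, 28, 29, 50 and 44 were called with the right sign in 4h_ATRi against arrested, and 10 of the unchanged features were called. The simulated counts had letter effects and the spread of the fit with the block, and changed features had a mean above 10 counts. The simulation therefore tested neither the block nor genes near the floor. Alternatives were DESeq2 1.42.0, other factors, other filters, no block, fewer libraries and fewer features. The third 6h_ATRi library was not analysed here. Some results are not reported here.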

Additional observations from a re-analysis of the deposited data

Results flagged for a closer look

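Of the 13510 features, 2 were called against arrested cells in opposite directions with DMSO and with the inhibitor at 4 h, and the difference between 4h_ATRi and 4h_DMSO itself was tested with edgeR's quasi-likelihood test and Benjamini-Hochberg adjustment. PPIL2, a cyclophilin-type splicing factor whose feature is overlapped by YPEL1, had 36.2, 49.7 and 33.02 CPM in arrested cells A, B and C, 20.96, 27.7 and 17.7 CPM in 4h_DMSO and 84.8, 87.1 and 49.4 CPM in 4h_ATRi. Every 4h_DMSO library lay below every arrested library, and the inhibited libraries lay above their arrested partners, with inhibited C within the arrested range. The changes from arrest were -0.84 ± 0.20 and 0.88 ± 0.18 on the log2 scale, and the difference was 1.73 ± 0.19 (adjusted p = 6.35e-13). COG5, a subunit of a Golgi tethering complex whose feature is overlapped by HBP1 and DUS4L, had 177, 179 and 188 CPM in arrested cells, 142, 137 and 117 CPM in 4h_DMSO and 308, 217 and 244 CPM in 4h_ATRi. Its changes were -0.46 ± 0.12 and 0.48 ± 0.11, and the difference was 0.95 ± 0.11 (adjusted p = 5.83e-11), higher with the inhibitor in each of the 3 experiments. The rise of COG5 from arrest was not called without the block (adjusted p = 0.0896), without 4h_ATRi A or without experiment A (adjusted p up to 0.225), while both differences from 4h_DMSO held in these fits. COG5 was chosen after its values were seen, and the 2 changes from arrest share the arrested libraries.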

How the results depend on the processing

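Counts of calls depended on the fit more than directions did. With no replicate block, 265 features were higher and 197 lower than in arrest, 39 and 3 than in 4h_DMSO and 8 and 5 than in 6h_DMSO, and 4 S phase genes, 1 p53 target and 7 cytoskeletal genes were called. With only features not overlapped, the counts were 162 and 102, 35 and 3, and 15 and 7. In that fit 32 of 70 mitotic and 4 of 7 cytoskeletal genes were higher. Lower in it were 7 of 44 S phase genes and 4 of 14 p53 targets. With a log2 change of at least 1, the feature counts were 307 and 165, 62 and 4, and 47 and 17, with 6 S phase, 4 p53 and 4 cytoskeletal genes. DESeq2 gave 69 features higher than in 6h_DMSO, 5 S phase genes and 3 p53 targets. With only compared conditions, 254 features were higher and 259 lower than in 6h_DMSO, and with no filter on low counts 7 S phase genes were lower. The cause of these shifts was not tested, except that fewer features or fewer libraries entered some fits. Leaving out 1 library or 1 experiment gave 374 to 683 features higher and 297 to 660 lower than in arrest, 72 to 137 and 6 to 43 against 4h_DMSO, and 20 to 83 and 6 to 96 against 6h_DMSO. In the same fits 43 to 59 mitotic genes, 4 to 9 S phase genes, 2 to 6 p53 targets and 7 to 14 cytoskeletal genes were called. Of 97 genes named with a call against arrest, 29 lost it in at least 1 setting, 20 of them with no replicate block, and none changed direction. A setting that gave a gene no adjusted p did not count as a loss. DESeq2 gave one for 78 of the 97, not for CENPA, PSRC1, KIF14 or INSIG1 among others, and the fit of features not overlapped for 62. CHEK1, not called, ranged from -0.47 to 0.29 on the log2 scale with 1 library or experiment left out, above 0 without 4h_ATRi A (0.29), arrested B, experiment A or experiment B. The fit without ENSG00000226958 and mitochondrially encoded genes, and those of list counts and of the differences from DMSO conditions, were chosen after seeing the data. Detection was not measured by expression level.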
